A study of Mus musculus with 29 samples.

Results

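The smooth muscle contractile genes are 10 genes that encode the filaments, motor and regulators with which vascular smooth muscle contracts: Acta2, Actg2, Tagln, Cnn1, Myh11, Myl9, Mylk, Lmod1, Smtn and Synpo2. They were chosen by symbol, and all 10 were found among the 29955 genes of the mouse table. All 10 also passed the filter on low values, which kept 12759 genes for testing.

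In smooth muscle, calcium entering the cell activates myosin light chain kinase, which phosphorylates the regulatory light chain and lets myosin pull on actin. Many genes of this apparatus are switched on together by serum response factor and its cofactor myocardin, which act through a DNA element called the CArG box. In the heart these genes are carried by the muscle layer of coronary arteries and arterioles, and some of them also appear in pericytes, in activated fibroblasts and in the developing or stressed cardiomyocyte.

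The study followed the mouse heart into heart failure (HF) and out of it. Male C57BL/6J mice, 3 months old at the start, were given L-NAME, which blocks nitric oxide synthase, at 0.3 mg/ml in drinking water that also held 1% NaCl, and received angiotensin II at 0.7 mg/kg/day from an implanted pump that lasts 28 days. The protocol ran for 5 weeks, after which the agents were stopped. RNA sequencing values were used from 24 libraries in 8 groups: HF week 3 (n = 2), HF week 5 (n = 3), Recovery week 7 (n = 2), week 9 (n = 2), week 11 (n = 3), week 13 (n = 2) and week 19 (n = 5), and Control week 19 (n = 5), the age-matched control arm. Recovery weeks 7 to 19 correspond to weeks 2 to 14 after the end of the protocol. All mice were wild type. Control week 19 lies 14 weeks after HF week 5, so that age and treatment cannot be told apart in comparisons of HF with these controls. The same limit holds for recovery against HF week 5 and for Recovery weeks 7 to 13 against Control week 19, where ages also differ. The tissue is given as heart or ventricle in the labels and as the apical portion in the methods. Values are FPKM, fragment numbers scaled by transcript length and library size, and differences are on the log2(FPKM + 0.5) scale, which understates the change of genes near or below 0.5 FPKM. Libraries are numbered within a group, and the numbers are not tied to an animal, so that p-values measure the spread between libraries.

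Some libraries stood apart before any comparison was made. The absolute depth is unknown, and the relative depth of 23 libraries lay between 0.728 and 1.40. For HF week 3 library 1 it could not be set, since only 11 low genes could be compared and 9.09% of them lay within 2% of the common ratio. A level above 0 was listed for 12816 genes in HF week 3 library 1 and for 16339 to 18091 genes elsewhere. The atrial light chain gene Myl7 was at 18388, 152 and 6.16 FPKM in HF week 5 libraries 1, 2 and 3, at 1805 and 5773 FPKM in HF week 3, and at no more than 3.56 FPKM in the 19 other libraries. The summed level of 8 atrial markers was 2258 to 82548 FPKM in HF week 5 and 7997 to 14259 FPKM in HF week 3 against 131 to 404 FPKM in the controls. Recovery libraries reached the low end of HF week 5, with 1133 to 2489 FPKM in Recovery week 9. These sums hold different genes, since Nppa, 1 of the 8, was at 42004, 2100 and 2214 FPKM in HF week 5 and was listed at 0 in both HF week 3 libraries. The summed level of 6 epicardial markers was 12.2 to 84.3 FPKM in HF week 5 and 73.2 to 234 FPKM in HF week 3 against 2.58 to 3.9 FPKM in the controls. The ventricular markers Tnnt2 and Tnni3 were present in all 24 libraries, at 4391 FPKM or more. Of 10 ventricular markers, 2 were lower in HF week 5 than in the controls, where 12.4% of all genes were lower, and 5 in HF week 3, where 27.6% were lower (limma). The higher calls in that list were Myl2 in both and Myh6 in HF week 3, whose controls are listed at 0. Atp2a2 differed by -0.70 in HF week 5 and -2.02 in HF week 3, and Pln by -0.87 and -1.90. Myl2 and the cardiac actin gene Actc1 were listed at 0 in all 5 controls, and Myh6 was listed at 0 in the controls, HF week 5 and Recovery week 19. In HF week 3 and Recovery weeks 7 to 13, Myh6 had means of 169670 and 191292 FPKM. These abundant cardiac genes were thus not usable as a reference. Their listing differs between groups that are compared below, and what this does to the other values was not tested. Counts of members called against HF libraries are therefore also given without HF week 5 library 1 or HF week 3 library 1, and single values where leaving out a library ended a call or moved a called value by over 1.5 times.

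The start regions of these genes are shown because many genes of this apparatus are known to be controlled through the CArG box. Of the 10 members, 7 had an entry among the RefSeq promoters of build GRCm38.p6, which is a later build than the one the FPKM values were made on, and Tagln, Myh11 and Actg2 had none. The 250 bases before the start are printed for 4 members, 5′ to 3′ on the strand of the gene, with matches to the CArG box in capitals. Of these, Acta2 lies at chr19:34255374-34255623 on the minus strand, Myl9 at chr2:156775214-156775463 on the plus strand, Lmod1 at chr1:135324563-135324812 on the plus strand and Synpo2 at chr3:123236150-123236399 on the minus strand.
Acta2: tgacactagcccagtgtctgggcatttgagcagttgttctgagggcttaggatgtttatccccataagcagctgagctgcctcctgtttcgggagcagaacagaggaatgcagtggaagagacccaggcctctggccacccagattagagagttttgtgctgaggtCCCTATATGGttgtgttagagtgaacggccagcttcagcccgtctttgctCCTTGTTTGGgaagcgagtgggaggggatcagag
Myl9: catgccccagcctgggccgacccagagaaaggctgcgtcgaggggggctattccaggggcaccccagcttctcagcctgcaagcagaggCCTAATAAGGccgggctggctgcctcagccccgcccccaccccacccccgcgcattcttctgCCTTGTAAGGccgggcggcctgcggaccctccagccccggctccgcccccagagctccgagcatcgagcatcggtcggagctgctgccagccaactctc
Lmod1: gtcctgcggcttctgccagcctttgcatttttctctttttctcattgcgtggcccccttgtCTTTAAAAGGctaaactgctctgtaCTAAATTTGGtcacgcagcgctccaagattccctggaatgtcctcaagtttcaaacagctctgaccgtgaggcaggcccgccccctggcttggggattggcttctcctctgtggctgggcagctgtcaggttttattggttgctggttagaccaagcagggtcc
Synpo2: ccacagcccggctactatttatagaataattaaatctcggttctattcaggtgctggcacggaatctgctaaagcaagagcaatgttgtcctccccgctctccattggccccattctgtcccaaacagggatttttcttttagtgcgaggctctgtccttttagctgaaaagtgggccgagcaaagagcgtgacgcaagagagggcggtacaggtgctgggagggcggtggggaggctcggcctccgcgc

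Myl9 held 1 exact CArG box, whose first base lay 161 bases upstream of the start, and a second match with 1 changed letter at 99 bases. Acta2 held 2 matches with 1 changed letter, at 84 and 34 bases, and Lmod1 held 2 such matches, at 189 and 164 bases. No match of either kind was found before the starts of Synpo2, Cnn1, Smtn and Mylk. The element was searched by its name, CArG box, and its pattern reads the same on both strands. An exact match was present in 1.63% of 32851 promoter windows of 300 bases, and a match with at most 1 changed letter in 21.1% of them. These matches are letters in a window and not measured binding, and the looser match was added after the values were seen.

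The actins came first. Acta2, which encodes the smooth muscle alpha-actin of the thin filament, was at 83.2, 142 and 82.1 FPKM in the 3 HF week 5 libraries and at 44.8, 59.7, 54.0, 44.0 and 52.7 FPKM in the 5 controls. Every HF week 5 library lay above every control. The difference was 0.96 ± 0.22 (SE) on the log2 scale, with a 95% interval of 0.49 to 1.42 (limma, adjusted p = 0.00481), and Acta2 was therefore higher in HF week 5. In this bulk tissue, more or fewer cells of a type and more or less RNA per cell cannot be told apart. HF week 3 libraries were at 74.9 and 59.4 FPKM, of which the lower value fell just under the highest control, and the difference of 0.39 from control did not pass (limma, adjusted p = 0.206). Acta2 in Recovery week 19 was at 51.8, 50.4, 46.9, 57.2 and 51.6 FPKM, inside the range of the controls. The 9 libraries of Recovery weeks 7 to 13 ran from 31.5 through a median of 46.5 to 98.9 FPKM. The highest of these, Recovery week 11 library 1, lay above the lowest HF week 5 library.

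Actg2, the gamma-actin of enteric and vascular smooth muscle, was at 0.188 to 1.24 FPKM outside HF week 3 and HF week 5 library 2. It was at 1.16, 0.944, 0.904, 0.443 and 1.15 FPKM in the controls and at 0.881, 2.73 and 1.24 FPKM in HF week 5. The HF week 5 and control groups overlapped, and the difference of 0.51, with a 95% interval of -0.15 to 1.16, did not pass (limma, adjusted p = 0.253). The HF week 3 libraries were at 4.82 and 1.83 FPKM, above all controls, and the difference of 1.34 ± 0.36 (SE) passed (limma, adjusted p = 0.00458). Without HF week 3 library 1 the difference was 0.74 (limma, adjusted p = 0.195). Such a fit leaves 1 library in HF week 3, which is assumed to vary like the other groups, and this holds for every value given with an HF week 3 library left out. Actg2 in Recovery week 19 was at 0.714, 0.36, 0.68, 0.214 and 0.298 FPKM, with the lowest 3 of these below every control. The muscle and cytoplasmic actins are close in sequence. Reads shared among Acta1, Actb, Actc1, Actg1, Acta2 and Actg2 were not measured and may make the values of Acta2 and Actg2 uncertain. Beside them, Acta1 was at 237 FPKM in controls and 1044 FPKM in HF week 5, and Actb at 291 and 433 FPKM (means).

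Tagln and Cnn1 encode transgelin and calponin, proteins that bind actin along the thin filament, where calponin also restrains the myosin ATPase. Tagln was at 35.7, 33.9, 36.3, 22.3 and 33.8 FPKM in the controls and at 61.1, 70.7 and 44.8 FPKM in HF week 5, with no overlap. It was higher in HF week 5 by 0.85 ± 0.24 (SE), with a 95% interval of 0.35 to 1.34 (limma, adjusted p = 0.0141). The call was lost without HF week 5 library 1, at 0.81 (limma, adjusted p = 0.0686), and without HF week 5 library 2, at 0.70 (limma, adjusted p = 0.0656). Tagln reached in HF week 3 78.9 and 74.7 FPKM, above every other library, and the difference from control was 1.25 ± 0.27 (SE; limma, adjusted p = 0.000922). Recovery week 19 libraries were at 34.4, 19.4, 28.6, 24.3 and 25.9 FPKM, and in Recovery weeks 7 to 13 it ran from 16.6 through 22.6 to 40.4 FPKM. All 14 recovery libraries lay below the lowest HF library.

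Cnn1 was at 1.79, 1.77, 1.74, 0.515 and 1.69 FPKM in the controls, of which library 4 stood below the other 4. In HF week 5 it was at 8.86, 5.77 and 1.9 FPKM, and in HF week 3 at 24.8 and 7.84 FPKM. The lowest HF value, 1.9 FPKM, lay just above the highest control, 1.79 FPKM. The difference between HF week 5 and control was 1.44 ± 0.39 (SE; limma, adjusted p = 0.0127), and it became 1.02 without HF week 5 library 1 (limma, adjusted p = 0.127). The difference of HF week 3 from control was 2.92 ± 0.45 (SE; limma, adjusted p = 4.55e-05), and it was 2.12 without HF week 3 library 1. Cnn1 was at 1.58, 0.989, 1.15, 1.18 and 1.48 FPKM in Recovery week 19 and between 0.406 and 1.61 FPKM in Recovery weeks 7 to 13. No recovery library reached the lowest HF library.

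**Figure D1:**
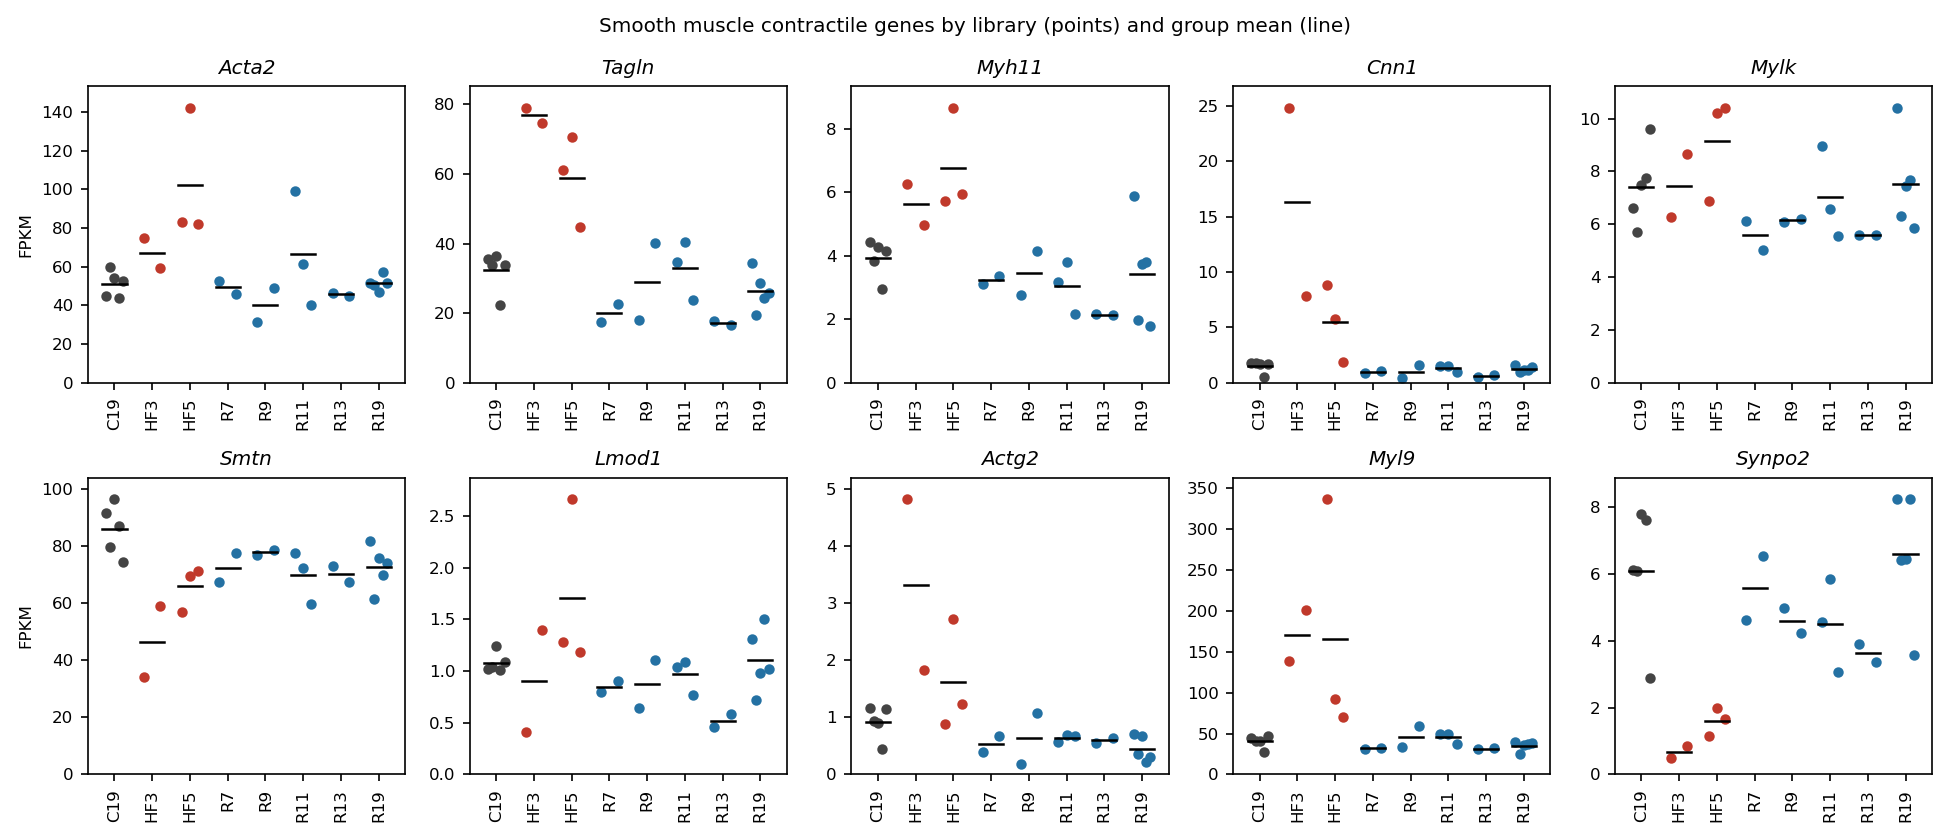
FPKM (vertical axes, from 0 and scaled for each gene) of the 10 members in the 24 libraries, 1 panel for a gene, with groups along the horizontal axis (C19, Control week 19; HF3 and HF5, HF weeks 3 and 5; R7 to R19, Recovery weeks 7 to 19), points for libraries and short lines for group means. Acta2, Tagln, Cnn1 and Myl9 are higher in HF week 5 than in every control, and Synpo2 is lower, with values of 1.14 to 1.99 FPKM against 2.89 to 7.79 FPKM.

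Myh11 and Myl9 encode the heavy chain of smooth muscle myosin and its regulatory light chain. Myh11, the most specific of these genes for mature smooth muscle, was at 4.43, 3.84, 4.27, 2.95 and 4.15 FPKM in the controls and at 5.72, 8.65 and 5.93 FPKM in HF week 5. The groups did not overlap, yet the difference of 0.70 ± 0.26 (SE), with a 95% interval of 0.16 to 1.25, did not pass (limma, adjusted p = 0.0565). It passed in fits without the HF week 3 libraries (limma, adjusted p = 0.0447) and with only the groups compared (limma, adjusted p = 0.019). Myh11 in HF week 3 was at 6.26 and 4.98 FPKM, both above every control, with a difference of 0.47 (limma, adjusted p = 0.195). Recovery week 19 libraries were at 5.87, 1.97, 3.74, 3.79 and 1.78 FPKM, a range that reached beyond the controls on both sides. Recovery weeks 7 to 13 ran from 2.13 through 3.1 to 4.14 FPKM.

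Myl9 was at 44.5, 41.4, 41.2, 27.3 and 47.2 FPKM in the controls and at 336, 92.6 and 69.7 FPKM in HF week 5. HF week 5 library 1 was the highest of all libraries. The difference was 1.70 ± 0.34 (SE), with a 95% interval of 0.98 to 2.41 (limma, adjusted p = 0.00182), and it was 1.01 without that library (limma, adjusted p = 0.0109). Myl9 in HF week 3 was at 139 and 201 FPKM, with a difference of 2.06 ± 0.39 (SE; limma, adjusted p = 0.000306). The Recovery week 19 libraries were at 39.8, 25.4, 36.0, 37.1 and 37.9 FPKM, and in Recovery weeks 7 to 13 it ran from 31.5 through 32.9 to 59.6 FPKM. All recovery libraries lay below the lowest HF library, 69.7 FPKM. The order of Myl9 in the 5 HF libraries was that of the atrial light chain gene Myl7: Myl9 rose from 69.7 to 92.6, 139, 201 and 336 FPKM as Myl7 rose from 6.16 to 152, 1805, 5773 and 18388 FPKM. The part of the atrial signal in Myl9 was not tested. In HF week 5 library 3, Myl7 was at 6.16 FPKM, above its level in every library outside HF, and Myl9 was above every control. The 8 atrial markers summed to 2258 FPKM in that library, against 131 to 404 FPKM in the controls. Over the 19 libraries outside HF, where Myl7 was at 3.56 FPKM or less, the correlation of Myl9 with Myl7 was r = 0.262, given as a description. These low Myl7 levels do not reach those of the HF libraries, so the correlation does not bear on the HF libraries.

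**Figure D2:**
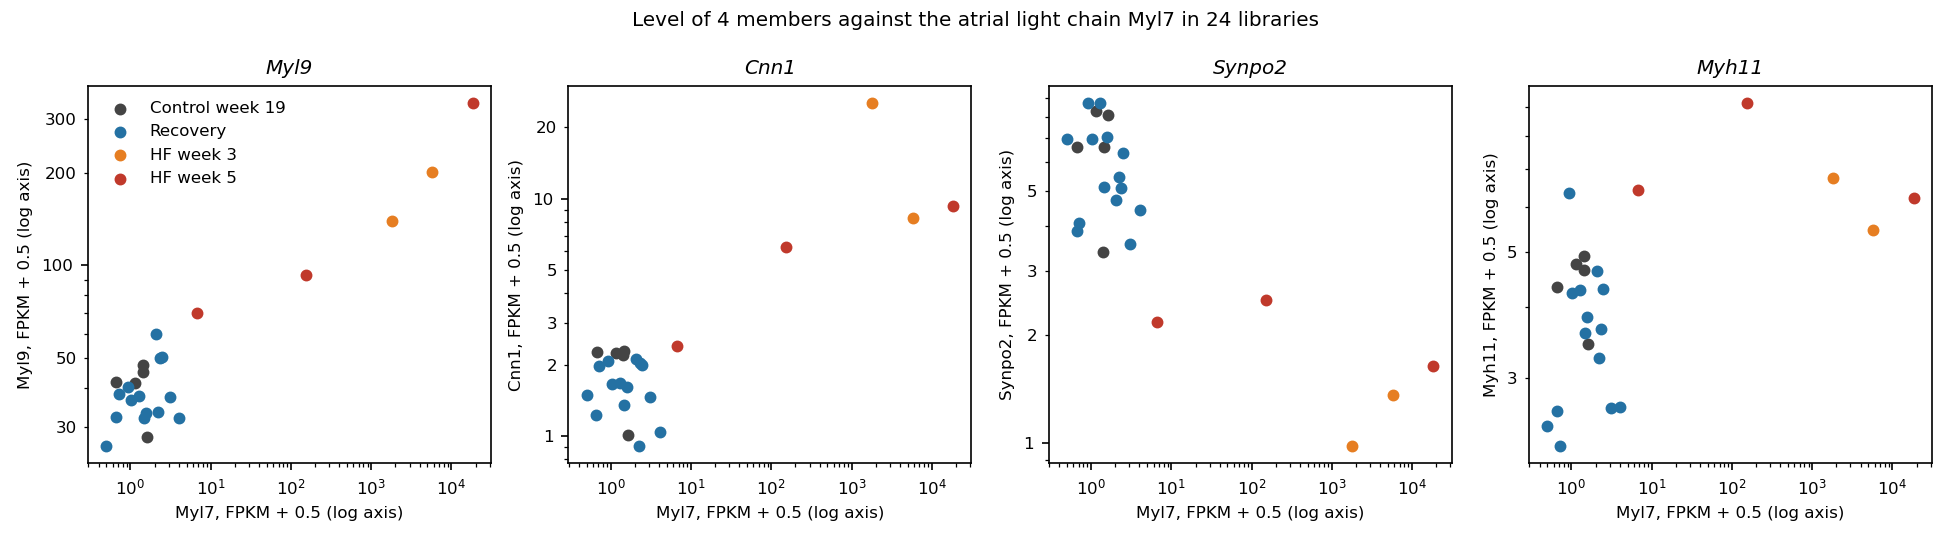
FPKM + 0.5 of Myl9, Cnn1, Synpo2 and Myh11 against that of the atrial gene Myl7 on log axes, 1 point for each of 24 libraries, coloured for Control week 19, Recovery, HF week 3 and HF week 5. In the 5 HF libraries Myl9 is higher the higher Myl7 is, up to 336 FPKM at a Myl7 level of 18388 FPKM, and the other libraries lie at 3.56 FPKM of Myl7 or less.

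Mylk encodes the kinase that phosphorylates the light chain encoded by Myl9. Its longer transcripts are also active in non-muscle cells. It was at 6.6, 5.7, 7.47, 7.77 and 9.59 FPKM in the controls and at 6.88, 10.2 and 10.4 FPKM in HF week 5. The groups overlapped and the difference of 0.28, with a 95% interval of -0.11 to 0.68, did not pass (limma, adjusted p = 0.297). It was at 6.26 and 8.65 FPKM in HF week 3 and at 10.4, 6.3, 7.44, 7.69 and 5.87 FPKM in Recovery week 19. In Recovery weeks 7 to 13 it ran from 5.04 through 6.1 to 8.96 FPKM. The difference of Mylk between HF week 3 and control was 0.01 (95% interval -0.45 to 0.47).

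Lmod1 encodes leiomodin, which nucleates actin filaments in smooth muscle. It was near 1 FPKM: the controls were at 1.02, 1.04, 1.24, 1.01 and 1.09 FPKM, and HF week 5 at 1.28, 2.66 and 1.18 FPKM. HF week 5 library 2 alone exceeded 1.5 FPKM, and the difference of 0.42, with a 95% interval of -0.06 to 0.90, did not pass (limma, adjusted p = 0.193). HF week 3 was at 0.412 and 1.4 FPKM, the lowest and among the highest of the libraries. Recovery week 19 was at 1.31, 0.72, 0.982, 1.5 and 1.02 FPKM, and Recovery weeks 7 to 13 ran from 0.463 through 0.793 to 1.11 FPKM. The start of Lmod1 printed above holds 2 matches with a changed letter, like that of Acta2.

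Smtn encodes smoothelin, which binds actin filaments of contractile smooth muscle. On the FPKM scale, which is per length, it was the member at the highest level in the controls, at 91.5, 79.9, 96.4, 87.2 and 74.6 FPKM in the controls against a mean of 3.93 FPKM for Myh11. In HF week 5 Smtn was at 57.1, 69.6 and 71.3 FPKM, below every control, with a difference of -0.38 (95% interval -0.69 to -0.07) that did not pass (limma, adjusted p = 0.0675). It passed without the HF week 3 libraries (limma, adjusted p = 0.0166), with median centring (limma, adjusted p = 0.0389) and without Control library 5 (limma, adjusted p = 0.0418). HF week 3 libraries were at 34.2 and 58.9 FPKM, below every control, and differed by -0.92 ± 0.17 (SE; limma, adjusted p = 0.000213). Without HF week 3 library 1 this difference was -0.53 (limma, adjusted p = 0.0235). Recovery week 19 was at 81.9, 61.5, 75.9, 69.8 and 74.0 FPKM, and Recovery weeks 7 to 13 ran from 59.8 through 73.2 to 78.8 FPKM, so that these groups lay between HF week 5 and the controls and overlapped both. Smtn was the only member besides Synpo2 with a lower mean in both HF groups than in the controls and in every recovery group.

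Synpo2 encodes synaptopodin 2, also called myopodin, an actin-bundling protein of the Z-disc and of smooth muscle dense bodies. It was at 6.12, 6.09, 7.79, 7.61 and 2.89 FPKM in the controls and at 1.14, 1.99 and 1.67 FPKM in HF week 5. The HF week 3 libraries were at 0.482 and 0.857 FPKM. Each HF library lay below each control and below each recovery library, the lowest of which was at 3.07 FPKM. The difference of HF week 5 from control was -1.60 ± 0.28 (SE), with a 95% interval of -2.19 to -1.02 (limma, adjusted p = 0.000645), and that of HF week 3 was -2.45 ± 0.32 (SE; limma, adjusted p = 8.32e-06). Synpo2 in Recovery week 19 was at 8.23, 6.43, 6.46, 8.23 and 3.57 FPKM, inside or above the range of the controls. In Recovery weeks 7 to 13 it ran from 3.07 through 4.57 to 6.54 FPKM.

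Counted over the 10 members, HF week 5 differed from Control week 19 in 5: Acta2, Tagln, Cnn1 and Myl9 were higher and Synpo2 was lower (limma, adjusted p under 0.05). Over all 12759 genes tested, 11.6% were higher and 12.4% lower. The members' median difference was 0.60 against 0.04 over all genes. In 7 of the 10 members the groups did not overlap, as in 29.5% of all genes. Without HF week 5 library 1, Acta2, Myl9 and Synpo2 were called and the background fell to 4.21% higher and 6.45% lower. Without that library and the HF week 3 libraries, 4 were called: Acta2 (adjusted p = 0.00675), Tagln (0.0483), Myl9 (0.00495) and Synpo2 (0.00456), with 8.86% of all genes higher and 11.4% lower (limma).

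**Figure D3:**
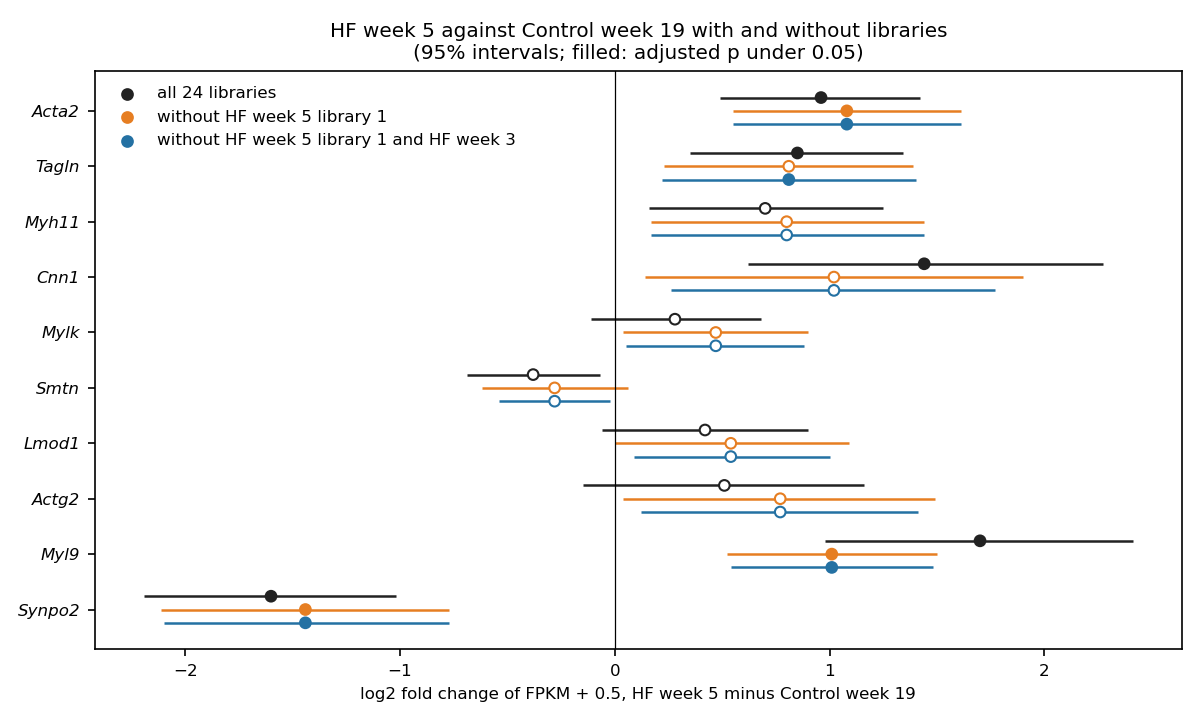
Log2 difference between HF week 5 and Control week 19 for the 10 members in the fit of all libraries and in fits without HF week 5 library 1 and without that library and the HF week 3 libraries, with 95% intervals, a line at 0 and filled points for an adjusted p under 0.05. Myl9 goes from 1.70 to 1.01 without HF week 5 library 1, and Synpo2 from -1.60 to -1.44.

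HF week 3 differed from Control week 19 in 6 members. Tagln, Cnn1, Actg2 and Myl9 were higher, and Smtn and Synpo2 were lower, where 23.1% of all genes were higher and 27.6% lower. The members' median was 0.43 against -0.05 over all genes, and 7 members did not overlap, as 45.3% of all genes did not. With only HF week 3 library 2 left in the group, 5 members were called, without Actg2, beside 14.5% of all genes higher and 15.6% lower. Both comparisons share the controls. Comparing the HF groups with each other, Cnn1 was higher in week 3 by 1.48 ± 0.49 (SE; limma, adjusted p = 0.0398) and Smtn differed by -0.54 ± 0.18 (SE; limma, adjusted p = 0.0421), beside 8.28% of all genes higher and 13.1% lower. Neither was called with HF week 3 library 2 alone, at 0.68 for Cnn1 (limma, adjusted p = 0.755) and -0.16 for Smtn (limma, adjusted p = 0.857), and also without HF week 5 library 2 or 3 (Cnn1 at 0.92 without library 3). With HF week 3 library 1 alone, Cnn1 differed by 2.28 and Smtn by -0.93. Without HF week 3 library 1 the calls over all genes fell to 0.865% higher and 0.44% lower. The median over the members was -0.25 and over all genes -0.08, and 3 members did not overlap, as 27.5% of all genes did not.

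Between Recovery week 19 and HF week 5, 7 members differed (limma, adjusted p under 0.05), beside 12.3% of all genes higher and 12% lower. Acta2 (-0.93, adjusted p = 0.00546), Tagln (-1.14, 0.00226) and Myh11 (-0.97, 0.0116) were lower. Cnn1 (-1.56, 0.00787), Actg2 (-1.09, 0.0169) and Myl9 (-1.88, 0.000837) were lower as well, and Synpo2 was higher (1.72, 0.000368). Mylk, Smtn and Lmod1 differed by -0.27, 0.14 and -0.42 and were not called. In 6 members the groups did not overlap, as in 26.7% of all genes. The median was -0.95 over the members and -0.04 over all genes. Without HF week 5 library 1, 6 members were called, beside 6.9% of all genes higher and 5.27% lower. In that fit Cnn1 was not called (-1.14, adjusted p = 0.0822) and Myl9 differed by -1.20 (adjusted p = 0.00355), and without library 2 neither Myh11 (-0.79, 0.0603) nor Actg2 (-0.73, 0.115) was called (limma). Myh11 was also not called with only the groups compared in the fit (limma, adjusted p = 0.0644).

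In Recovery weeks 7 to 13 against HF week 5, 8 members were lower and Synpo2 was higher, beside 11.2% of all genes higher and 10.9% lower. The lower members included Mylk (-0.55, adjusted p = 0.0313) and Lmod1 (-0.72, adjusted p = 0.0196; limma), which were not called at week 19. Without HF week 5 library 1, all 9 were called, beside 5.39% of all genes higher and 3.93% lower, and the difference of Myl9 went from -1.77 to -1.08 (limma, adjusted p = 0.0054). Without HF week 5 library 2, Mylk, Lmod1 and Actg2 were not called (limma, -0.46, -0.43 and -0.53, with adjusted p = 0.122, 0.174 and 0.236). Mylk also lost its call without HF week 5 library 3, Recovery week 7 library 2 or Recovery week 9 library 1, and Actg2 without HF week 5 library 3, Recovery week 7 library 1, Recovery week 9 library 1 or Recovery week 13 library 1. With median centring neither was called (limma, adjusted p = 0.0605 for Mylk and 0.052 for Actg2). The median was -0.95 over the members and -0.04 over all genes. In 6 members the groups did not overlap, as in 19.6% of all genes.

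Against the controls, recovery gave no call. None of the 10 members differed between Recovery week 19 and Control week 19 (limma), and the adjusted p was 1 for each. At an unadjusted p under 0.05 there was 1 member, Actg2, with a difference of -0.58 and a 95% interval of -1.15 to -0.01. Of all genes, 0.0235% were higher and 0% lower at the adjusted threshold, and 367 of 12759 had an unadjusted p under 0.05. A difference that misses the threshold does not show equal levels, and the intervals of the other 9 members included 0: for Acta2 the difference was 0.02 (-0.38 to 0.42), for Myl9 -0.19 (-0.80 to 0.43) and for Synpo2 0.12 (-0.39 to 0.63). The members' median was -0.15 against -0.01 over all genes, and no member was without overlap, as 1.17% of all genes were. In Recovery weeks 7 to 13 against the controls, none was called either (limma), with adjusted p = 0.629 for Tagln (-0.44) and 0.722 for Smtn (-0.24). These 2 members had an unadjusted p under 0.05. In that comparison 0.0549% of all genes were higher and 0.0157% lower, 880 had an unadjusted p under 0.05, the members' median was -0.32 against 0 over all genes, with all 10 differences between -0.44 and -0.06, and 0 members were without overlap beside 0.682% of all genes. These comparisons share the controls with those of HF against control, and the recovery libraries with those of recovery against HF week 5. The latter share the HF week 5 libraries with the comparison of HF week 5 with control.

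**Figure D4:**
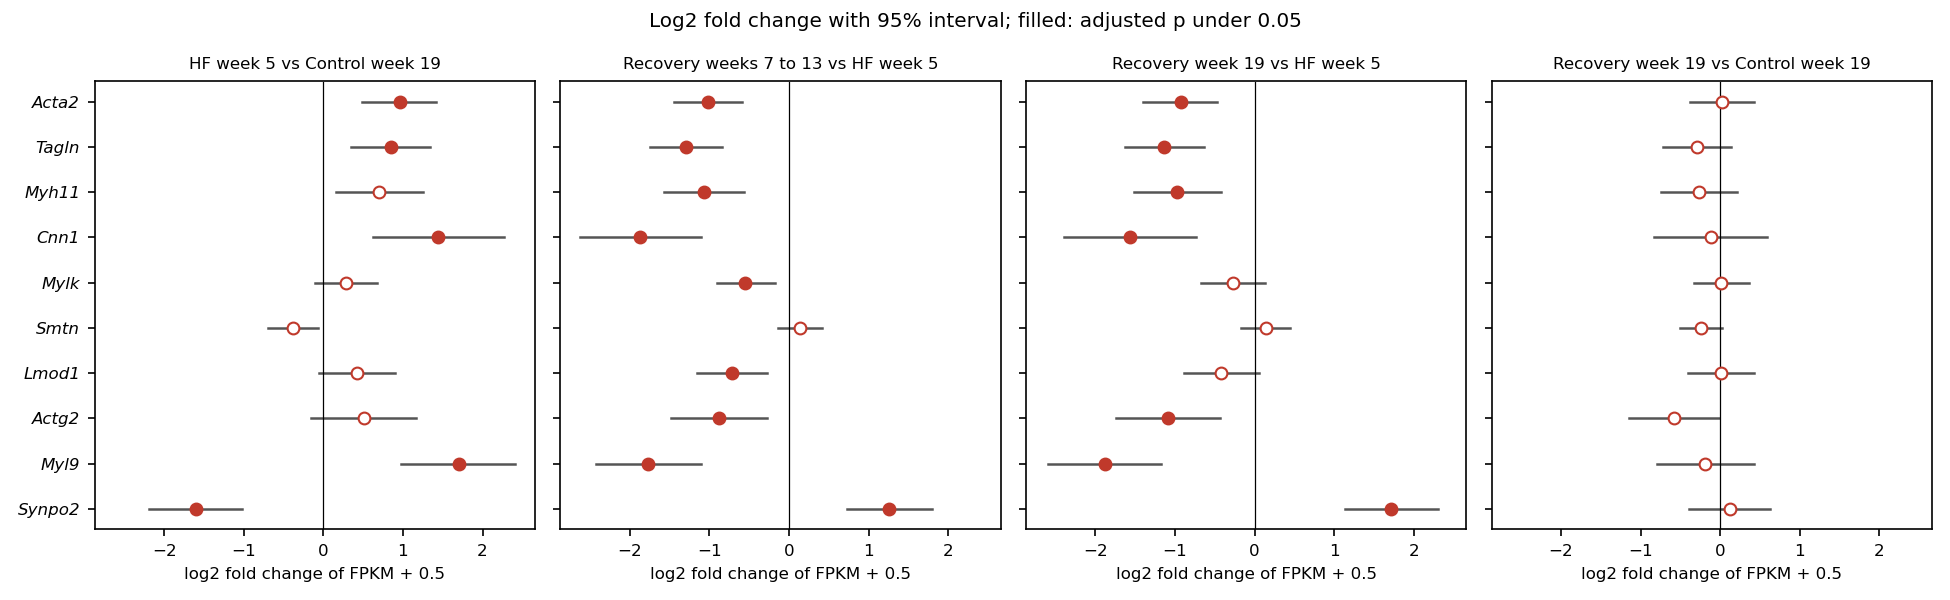
Log2 difference, with 95% intervals, of the 10 members, in 4 panels for HF week 5 against Control week 19, Recovery weeks 7 to 13 against HF week 5, Recovery week 19 against HF week 5 and Recovery week 19 against Control week 19, with a line at 0 and filled points for an adjusted p under 0.05. Intervals of Recovery week 19 against Control week 19 include 0 for all members but Actg2, at -0.58.

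In some groups 1 library was lowest or highest for most members. Control library 4 had the lowest value of its group for 7 of the 10 members, and HF week 5 library 2 the highest for 6. Recovery week 9 library 1 and Recovery week 11 library 3 each had the lowest value of their group for 9 members, and Recovery week 19 library 1 the highest for 7. Recovery week 9 has 2 libraries only. Recovery week 7, also with 2 libraries, had library 1 lowest for 8. The members were split in HF week 3, with each library lowest for 5, and in Recovery week 13, with the libraries lowest for 4 and 6. Over the 19 libraries outside HF, which pool 6 groups, the correlation between members measured in the same libraries was 0.865 for Tagln and Cnn1, 0.861 for Tagln and Myl9 and -0.168 for Myl9 and Synpo2. Tagln had the highest correlation with the mean of the other 9 members (r = 0.9), followed by Myh11 (0.814) and Lmod1 (0.792). Synpo2 had the lowest, at 0.286, and Acta2 had 0.446.

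**Figure D5:**
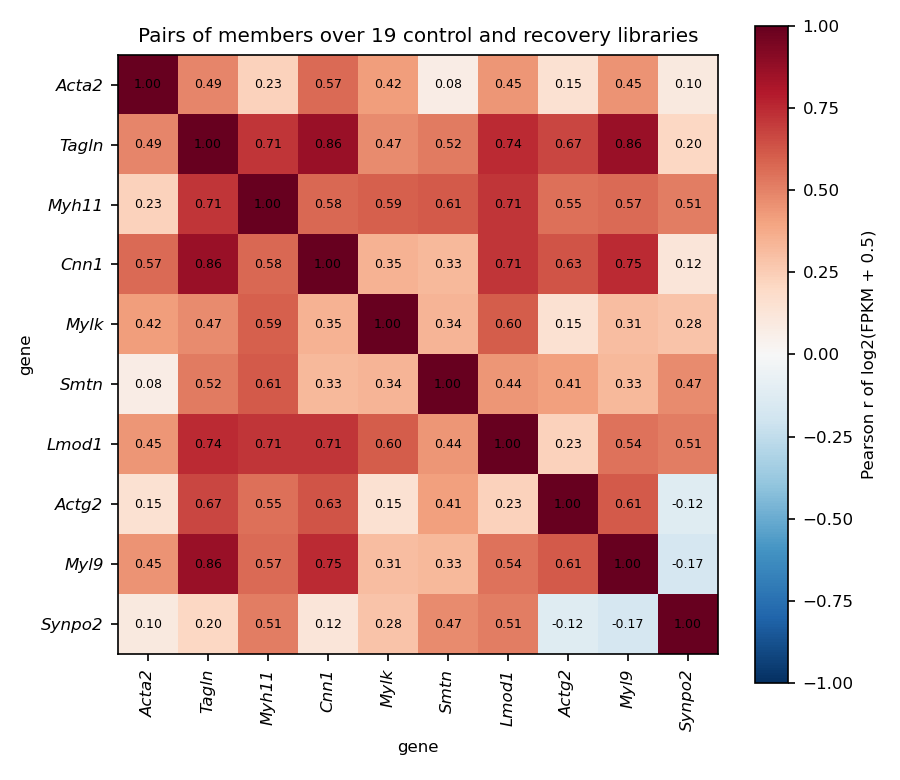
Pearson correlation of log2(FPKM + 0.5) between each pair of the 10 members over the 19 libraries outside HF, as a coloured grid. Tagln with Cnn1 (0.865) and with Myl9 (0.861) are the highest pairs, and Myl9 with Synpo2 (-0.168) is the lowest.

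The gene whose pattern over the 24 libraries was most like the mean of the members was E4f1 (r = 0.845, and 0.625 over the 19 libraries outside HF), followed by Rbm5 (0.832, 0.678) and AA408296 (0.831, 0.731). They were ranked among all genes tested by Pearson r of log2(FPKM + 0.5) with the mean of the members' standardised levels. Over the 24 libraries, Synpo2 (r = -0.516) and Smtn (r = -0.226) ran against the mean of the other members. That mean is therefore not a pattern shared by all members.

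The genes around the contractile apparatus did not all move with it. Of 14 other filament and adhesion genes tested in HF week 5 against control, 5 were higher and 1 was lower, with a median of 0.21, beside 11.6% of all genes higher and 12.4% lower. Without HF week 5 library 1, 4 were higher in a fit with 4.21% of all genes higher. Tpm2, a tropomyosin of the thin filament, was at 86.6, 61.7 and 47.1 FPKM in HF week 5 and 19.2 to 38.1 FPKM in the controls, a difference of 1.22 ± 0.26 (SE; limma, adjusted p = 0.00258), and Actn1 differed by 0.93 (limma, adjusted p = 0.00265). In the fit without HF week 5 library 1 these differences were 1.00 for Tpm2 (adjusted p = 0.0316) and 0.61 for Actn1 (adjusted p = 0.0322; limma). Of 10 transcription factors and cofactors, 4 were lower and 6 were not called, with a median of -0.37, and 1 was lower without HF week 5 library 1, where 6.45% of all genes were lower. Myocd, which encodes the cofactor myocardin, was at 0.639, 1.64 and 1.1 FPKM in HF week 5 and 3.06, 2.69, 3.65, 3.55 and 1.63 FPKM in the controls, so the groups overlapped by 1 library each. Its difference was -1.08 ± 0.27 (SE; limma, adjusted p = 0.00702), and it was -0.84 and not called without HF week 5 library 1 (limma, adjusted p = 0.0721). The heart muscle also expresses Myocd, and the part of each cell type was not tested.

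Of 11 genes in the list of calcium channels and vasoactive receptors, 3 were higher and 4 lower, beside 11.6% and 12.4% of all genes. The higher genes were Gucy1a3 (1.04), Gucy1b3 (0.50) and Mrvi1 (1.14), and the lower were Agtr1a, Adra1a, Adra1b and Adra1d. The calcium channel genes Cacna1c and Cacna1h were not called. Agtr1a, the receptor of angiotensin II, was at 3.66, 7.87 and 5.96 FPKM in HF week 5 against 9.55 to 14.4 FPKM in the controls (-1.08 ± 0.23, SE; limma, adjusted p = 0.00265). When that fit left out HF week 5 library 1, 3 of the 11 were higher and 2 lower, beside 4.21% and 6.45% of all genes, and Agtr1a differed by -0.81 (limma, adjusted p = 0.0354). At Recovery week 19, Tpm2 was lower than in HF week 5 (-1.49, adjusted p = 0.000599), and Myocd (1.11, 0.00577) and Agtr1a (1.03, 0.00366) were higher (limma). Of these, Myocd was not called without HF week 5 library 1 (0.88, limma, adjusted p = 0.0579). Against Control week 19, Tpm2 differed by -0.27 and Myocd by 0.03 at Recovery week 19 (limma, adjusted p = 1 for both).

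Markers of other cell types were measured beside the members, and their part in the differences was not tested. In HF week 5 against control, 6 of 10 fibroblast, 6 of 8 activated fibroblast and 5 of 10 endothelial markers were higher, with median differences of 0.59, 1.49 and 0.45 (limma), where 11.6% of all genes were higher. With HF week 5 library 1 left out, the activated fibroblast and endothelial counts were 5 and 4, and the 10 fibroblast markers all missed the threshold, with a median of 0.45, where 4.21% of all genes were higher. The summed level of activated fibroblast markers was 54.4 to 106 FPKM in HF week 5, 159 to 163 FPKM in HF week 3 and 20.1 to 28.8 FPKM in the controls. Recovery libraries reached into the HF week 5 range, with 28.7 to 74.9 FPKM in Recovery week 11. Among 10 pericyte markers, 2 were higher and 1 was lower, with a median of 0.12, beside 11.6% and 12.4% of all genes. Without HF week 5 library 1, 2 were higher and the lower call was lost, with a median of 0.42, beside 4.21% and 6.45% of all genes. Their summed level was 125 to 250 FPKM in HF week 5 and 163 to 210 FPKM in the controls. Among the other lists, 5 of 7 atrial and 4 of 6 epicardial markers were higher, with and without HF week 5 library 1 (limma). In HF week 3 against control, 6 of 10 fibroblast, 7 of 8 activated fibroblast and 7 of 10 endothelial markers were higher (limma). Higher calls also covered 4 of 10 pericyte, 5 of 7 atrial and 4 of 6 epicardial markers, where 23.1% of all genes were higher. The endothelial marker Kdr, the pericyte marker Abcc9 and the atrial marker Nppa were lower, where 27.6% of all genes were lower. These counts include HF week 3 library 1. From HF week 5 to Recovery week 19, 6 of 8 activated fibroblast, 5 of 10 endothelial, 5 of 7 atrial and 5 of 6 epicardial markers were lower (limma), where 12% of all genes were lower. Fibroblast markers were lower in 2 of 10, with a median of -0.19, and pericyte markers were lower in 2 and higher in 2 of 10. In the fit without HF week 5 library 1, 4 of 8 activated fibroblast, 4 of 10 endothelial, 2 of 10 pericyte, 5 of 7 atrial and 4 of 6 epicardial markers were lower and 1 of 10 fibroblast markers was higher, beside 6.9% of all genes higher and 5.27% lower. Myl7 and the epicardial gene Upk3b were at 0 to 3.56 FPKM and 0 to 0.539 FPKM in the 19 libraries outside HF, where the members were at the levels given above.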

How the data were processed

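Poly(A)-enriched RNA was sequenced in pairs of reads. The authors used TopHat for alignment to mouse build MGSCv37 (mm9), and Cuffdiff gave the deposited FPKM of 29955 genes in each library. The annotation and the scaling between libraries are not given in the sources used here. FPKM keep no counts, so the depth is unknown and low values are less precise. The week in a column's name gave its group. A further 5 columns of single libraries were left out, because they are named for the week 5 controls and only 4 such samples are labelled, and Control week 19 took the place of that group. Recovery week 9 has 2 columns and 3 labelled samples.

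The test covered the 12759 genes whose mean was at least 0.5 FPKM. Log2(FPKM + 0.5) entered limma 3.58.1 (R 4.3.3), with 1 mean for each of 8 groups, 16 residual degrees of freedom and a trend of the variance on the mean. All p-values were two-sided and adjusted by Benjamini and Hochberg over all genes tested, and a call is an adjusted p under 0.05. Recovery weeks 7 to 13 is the mean of 4 group means with equal weight. Tested on simulated data for HF week 5 against control (12632 genes), the fit recovered 79% of 100 genes that differed by a log2 of 1 and 95% of 100 genes that differed by a log2 of 2.

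The text names the 10 members, genes among the 3 with the smallest p in HF week 5 against control in each other list, and the genes whose pattern over 24 libraries was most like the members' mean. Other genes were chosen after their values were seen. The results of 1 list are not reported here. The members and the lists were chosen with earlier results of these data known. Alternatives were 2 other pseudocounts (0.1 and 1), other filters and scalings, a fit of only the groups compared, and leaving out libraries. Dropping HF week 5 library 1 together with HF week 3 was added after seeing the data. Figures were drawn in Python 3.11.15 (matplotlib 3.10.9, with pandas 2.3.3 and numpy 2.4.6).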

Additional observations from a re-analysis of the deposited data

Results flagged for a closer look

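In groups of 5 libraries, 20 combinations of a member and a group were looked at for a single library far from the others, and 3 were found, where chance gives about 1 in 20. Tagln at 22.3 FPKM and Cnn1 at 0.515 FPKM were both lowest in Control week 19 library 4, which had the lowest value of its group for 7 of the 10 members. Myl9 at 25.4 FPKM was lowest in Recovery week 19 library 2.

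The effect against Control week 19 differed between HF weeks 3 and 5 for 2 members by the test of the difference itself (limma). For Cnn1 it was larger in HF week 3 by 1.48 on the log2 scale (adjusted p = 0.0398), and for Smtn it differed by -0.54 (adjusted p = 0.0421). Neither was called without HF week 3 library 1, a fit that leaves 1 library in that group.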

How the results depend on the processing

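No paired analysis was possible because the library numbers match no label that ties animals across groups, and the fit with a replicate block was not run. The count of members called between HF week 5 and Control week 19 (5) ran from 3 to 6 when 1 library was left out, with 3 without HF week 5 library 1 (10.7% of all genes called) and 6 without Control library 5 (28.6%). The count between HF weeks 3 and 5 (2) became 0 with only the groups compared (0.061% of all genes called), 0 without a filter on low values (10.2%), 5 at an unadjusted p (39.1%), 1 with quantile normalization (19.9%) and 0 to 5 when 1 library was left out (1.31% to 53%), and the cause was not tested. At an unadjusted p the count was 1 in Recovery week 19 (2.88% of all genes) and 2 in Recovery weeks 7 to 13 (6.9%) against control. Some differences that were not called turned direction. In HF week 3 against control, Mylk went to -0.06 with median centring, -0.03 with quantile normalization and -0.21 to 0.23 when 1 library was left out, and Lmod1 to 0.003 with quantile normalization and -0.79 to 0.27 when 1 library was left out (called only without HF week 3 library 2, adjusted p = 0.0223). Myl9 ran from -0.08 to 1.05 in HF week 3 against HF week 5 (called only without HF week 5 library 1, adjusted p = 0.0145, limma). In Recovery week 19 against control, Acta2 ran from -0.03 to 0.08, Mylk from -0.10 to 0.11, Lmod1 from -0.08 to 0.10 and Synpo2 from -0.11 to 0.31 when 1 library was left out, and Lmod1 was -0.00048 with a pseudocount of 0.1 and -0.009 with quantile normalization. In Recovery weeks 7 to 13 against control, Acta2 ran from -0.15 to 0.02 and Myl9 from -0.21 to 0.03. Median centring moved the median of all genes in HF week 3 against control to -0.111. With a mean of at least 1 FPKM, Actg2 was not tested. Values near 0.5 FPKM, as for Actg2 and Lmod1, are limited by depth, which is unknown.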
